A study of Mus musculus with 7 samples.

Results

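Receptors that bind the constant part of antibodies, and relatives of those receptors, are found in B cells and in other cells of the germinal centre. Of their genes 7, namely Fcrl5, Fcrl1, Fcrla, Fcgr2b, Fcer2a, Fcmr and Fcamr, were followed on 7 arrays. They were chosen by gene family with the genotype values of these arrays already known, so the differences between genotypes are a description, and the standard errors, intervals and counts from the fit over all genes beside them support nothing about these genes. Their Entrez gene IDs are, in that order, 329693, 229499, 98752, 14130, 14128, 69169 and 64435. Each had 1 probe with a single gene symbol, so the choice of the brightest probe by its mean over the arrays was never needed. The 7 genes belong to 21515 with such a probe, and all 7 were bright enough to be among the 16136 genes tested.

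The arrays came from splenic B cells sorted as positive for B220, CD95 and GL7 at day 7 after sheep red blood cells were injected, a standard way to raise a T cell-dependent response. Wild-type (WT) mice gave 4 arrays and RRas2-deficient mice gave 3, 1 array per sample. R-Ras2 is a small GTPase of the RAS superfamily. A label field of the deficient samples reads Rras-deficient, while their titles read RRas2-deficient. The labels name the replicates biological, and strain, age, the mutant allele and the cells in which it acts are not given in them, so any spread reported is the spread between these samples. In bulk RNA, fewer cells of a type and less RNA per cell cannot be told apart.

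Fc receptors let a B cell read the antibody already made against its antigen. Fcgr2b encodes the inhibitory receptor for immunoglobulin G, which recruits the phosphatase SHIP1 and dampens the B cell receptor when both are bound by 1 immune complex. Fcer2a encodes CD23, a C-type lectin that binds immunoglobulin E and the complement receptor CD21, and it is a classical marker of follicular B cells that is low on germinal centre cells. Fcmr binds immunoglobulin M, and Fcamr binds immunoglobulins A and M and is known from follicular dendritic cells. Fcrl1 and Fcrl5 are surface relatives with signalling tails, the first of which promotes B cell activation and the second of which marks marginal zone and B-1 B cells. Fcrla is a relative that stays inside the B cell.

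By the spread of their intensities the arrays formed 2 sets, each holding both genotypes. WT replicates 1 and 2 and RRas2-deficient replicate 2 had a narrower interquartile range of log2 intensity (2.37 to 2.49) than the other 4 arrays (2.69 to 2.91). No source used here says whether all arrays were normalized in a single run, so levels on the sets may not share 1 scale. B cell genes were bright on all arrays, with a mean log2 intensity of 10.21 to 10.69 over 8 tested B cell identity markers. Markers of germinal centre B cells averaged 8.17 to 8.29 on the narrower set and 9.08 to 9.52 on the wider set. WT replicate 3 also stood apart in sex-linked genes, with Xist at 6.61 against 9.43 to 10.29 elsewhere and Kdm5d, a gene of the Y chromosome, at 6.48 against 3.68 to 4.97. The targeted gene Rras2 averaged 7.90 ± 0.74 (SD, n = 4) in WT and 6.91 ± 0.22 (SD, n = 3) in deficient samples, a log2 difference of -0.99 ± 0.39 (limma's moderated SE) with an adjusted p of 1.00. Every deficient array read lower for Rras2 than every WT array, by a margin of 0.0076 log2 units. Within the narrower and the wider set the difference was -0.59 and -1.50. The Rras2 probe could lie outside the missing part, in which case it would check nothing.

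Fcrl5 was lower on every RRas2-deficient array than on every WT array. In order of replicate number, its log2 intensity was 5.85, 6.12, 6.16 and 6.06 in WT samples against 5.39, 5.43 and 5.61 in deficient samples. The genotypes did not overlap, and 0.24 log2 units separated the lowest WT array from the highest deficient one. The means were 6.05 ± 0.14 (SD, n = 4) and 5.47 ± 0.12 (SD, n = 3), a log2 difference of -0.57 ± 0.11 (SE) or a 1.49-fold lower level. The difference was as large within each array set, at -0.55 on the 3 narrower arrays and -0.62 on the 4 wider ones. Without WT replicate 3, the array apart in its sex-linked genes, it was -0.54. The 2 sets themselves had nearly equal means for Fcrl5, 0.01 apart on the log2 scale.

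Fcmr, the receptor for immunoglobulin M, was the other member without overlap, by a very small margin. Its WT samples read 10.02, 10.06, 10.19 and 10.24, and its deficient samples 9.66, 10.02 and 9.74. Deficient replicate 2 lay only 0.0077 log2 units below WT replicate 1. This parting did not hold on every scale. After a further quantile normalization, chosen after seeing the data, the narrower arrays, with deficient replicate 2, read 10.15 or more. The wider arrays, with WT replicates 3 and 4, then read 10.08 or less, so the genotypes overlapped. The means were 10.13 ± 0.10 (SD, n = 4) and 9.81 ± 0.19 (SD, n = 3), a log2 difference of -0.32 ± 0.11 (SE) or 1.25-fold. On the wider arrays the difference was -0.51 and on the narrower arrays -0.03. Without WT replicate 3 it was -0.30.

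Fcer2a ran the other way, with higher means in the deficient cells and overlapping genotypes. The WT replicates read 10.37, 10.37, 9.83 and 10.28 and the deficient replicates 10.88, 10.64 and 10.37, where the value of 10.37 was the same number on WT replicates 1 and 2 and RRas2-deficient replicate 3. The means were 10.21 ± 0.26 (SD, n = 4) and 10.63 ± 0.25 (SD, n = 3), a log2 difference of 0.42 ± 0.18 (SE) or a 1.34-fold higher level. It was 0.27 on the narrower and 0.57 on the wider arrays, and within each set the deficient arrays lay above the WT arrays. The lowest value belonged to WT replicate 3, and without that array the difference was 0.29. CD23 is low on germinal centre cells as a protein, while the arrays read RNA. Fcer2a had the highest mean intensity of the 7 genes over the arrays, 10.39, followed by Fcmr at 9.99. Each gene was read by its own probe, so this order need not be the order of RNA amounts. The source of this Fcer2a signal was not tested.

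**Figure D1:**
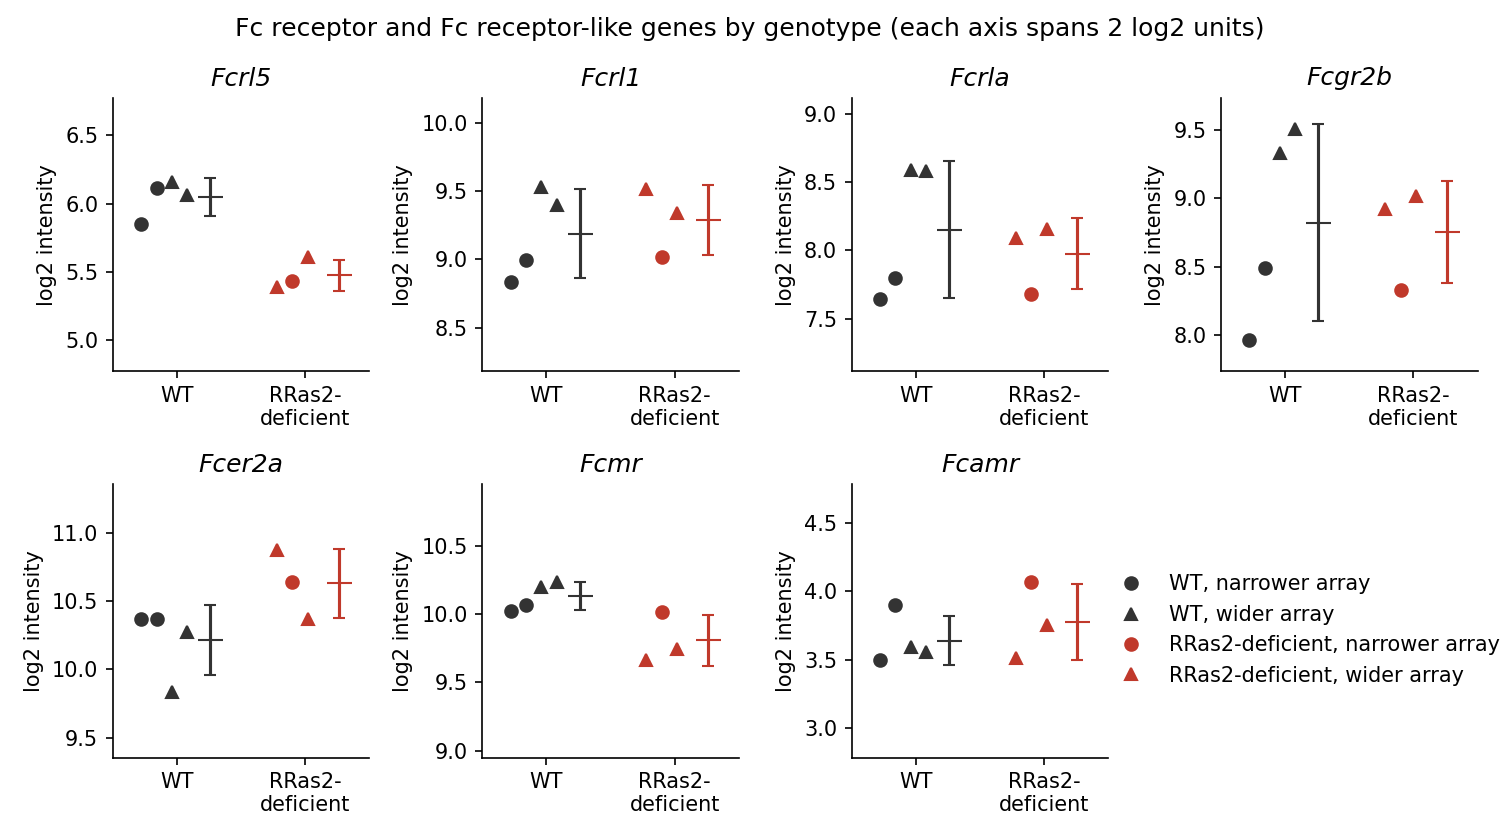
Log2 intensity of the 7 genes in WT (black, n = 4) and RRas2-deficient (red, n = 3) samples, with circles for narrower and triangles for wider arrays and a bar at mean ± SD. Every y axis spans the same width. The Fcrl5 points of the genotypes do not overlap, those of Fcmr barely part, and in Fcrl1, Fcrla and Fcgr2b the triangles lie above the circles in both genotypes.

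Over all arrays the other 4 members overlapped widely between genotypes. Fcrl1 read 8.83, 8.997, 9.53 and 9.40 in WT and 9.51, 9.01 and 9.34 in deficient samples, a difference of 0.10 ± 0.21 (SE). Fcrla read 7.64, 7.80, 8.59 and 8.58 against 8.09, 7.68 and 8.16, a difference of -0.17 ± 0.28 (SE). Fcgr2b spread most, at 7.97, 8.49, 9.33 and 9.50 in WT and 8.92, 8.33 and 9.02 in deficient samples, with a difference of -0.07 ± 0.40 (SE). For Fcgr2b the 95% interval ran from -1.03 to 0.89, so a change of about 2-fold lower or higher lay within or near it. Fcamr was dim, at 3.50, 3.90, 3.59 and 3.55 in WT and 3.51, 4.06 and 3.75 in deficient samples, just above the limit of 3.48 under which genes were left out. Its difference was 0.14 ± 0.16 (SE). Within the narrower and the wider arrays the differences were -0.04 and -0.46 for Fcrla and 0.10 and -0.45 for Fcgr2b. They were 0.10 and -0.04 for Fcrl1 and 0.36 and 0.06 for Fcamr. On the wider arrays alone the WT values of Fcrla and Fcgr2b lay above the deficient ones.

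Of the 7 genes 0 passed an adjusted p of 0.05 in the limma fit over all genes, where 0.0124% of genes passed, and 2 (Fcrl5 and Fcmr) had an unadjusted limma p under 0.05, where 0.818% did. On the deposited scale the deficient arrays all lay below the WT arrays in 2 of 7, against 0.366% of all tested genes. In 0 of 7 they all lay above, against 0.719%. Because the genes were chosen with this contrast known, nothing is read from these shares. Within both array sets at once the deficient arrays lay lower in Fcrl5 and Fcmr, as in 7.64% of all tested genes, and higher in Fcer2a, as in 6.7%. With the array set as a block in the model the differences were -0.59 ± 0.10 for Fcrl5, -0.32 ± 0.11 for Fcmr, 0.45 ± 0.16 for Fcer2a and -0.29 ± 0.11 for Fcrla (log2, ± SE). These 4 had an unadjusted limma p under 0.05 in that fit, as did 10.1% of all genes, and none passed adjustment. From these counts too nothing is read.

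**Figure D2:**
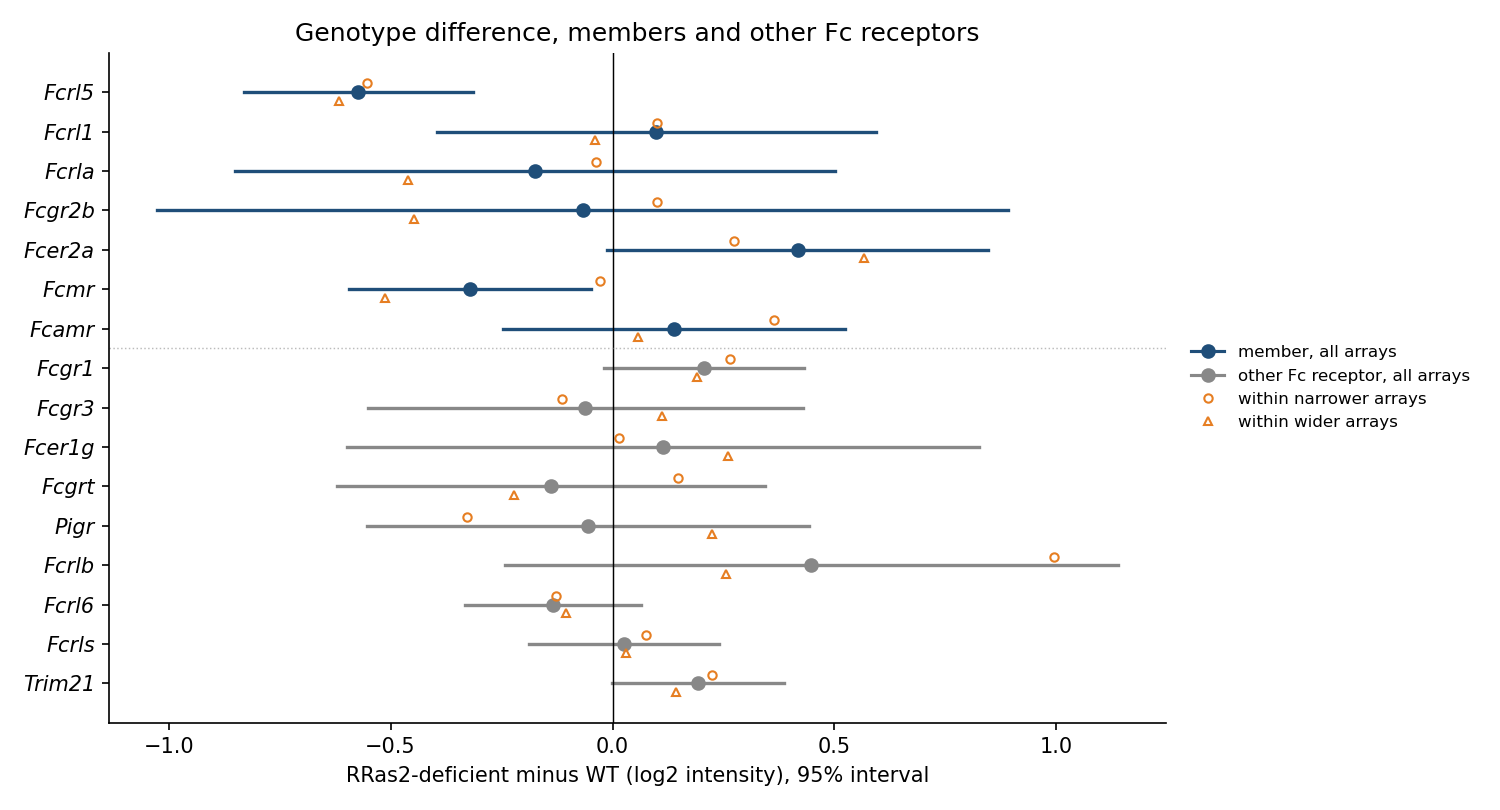
Log2 difference, RRas2-deficient minus WT, for the 7 genes (blue) and the 9 tested other Fc receptors (grey), with limma's 95% interval, not adjusted for the number of genes. Open orange marks give the difference within the narrower (circles) and wider (triangles) arrays. For Fcrl5 both orange marks sit at -0.55 and -0.62, while those of Fcgr2b lie on opposite sides of 0.

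The start regions of the 3 genes whose genotypes did not overlap within either array set are shown so that their sequence can be set beside these values. They come from RefSeq (GRCm38.p6), which held an entry for each of the 7 genes, and run from 250 bases before to 50 bases after a listed start. Capitals mark matches, on either strand, to a TATA box (TATAAA), an NF-kB motif (GGGA and CC with any 4 bases between), a STAT6 motif (TTC and GAA with any 4 bases between) or an octamer (ATGCAAAT). The first 2 are the starts of Fcrl5 (chr3:87435532-87435831, plus strand) and Fcmr (chr1:130865527-130865826, plus strand), the genes with lower means, and the next 2 are listed starts of Fcer2a (chr8:3694125-3694424, minus strand, and chr8:3690812-3691111, minus strand), the gene with the higher mean.
Fcrl5: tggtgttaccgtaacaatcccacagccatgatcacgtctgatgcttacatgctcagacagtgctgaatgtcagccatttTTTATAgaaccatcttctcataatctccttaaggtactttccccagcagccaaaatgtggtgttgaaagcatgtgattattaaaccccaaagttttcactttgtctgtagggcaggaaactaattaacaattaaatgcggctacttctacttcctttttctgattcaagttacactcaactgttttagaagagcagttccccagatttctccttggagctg
Fcmr: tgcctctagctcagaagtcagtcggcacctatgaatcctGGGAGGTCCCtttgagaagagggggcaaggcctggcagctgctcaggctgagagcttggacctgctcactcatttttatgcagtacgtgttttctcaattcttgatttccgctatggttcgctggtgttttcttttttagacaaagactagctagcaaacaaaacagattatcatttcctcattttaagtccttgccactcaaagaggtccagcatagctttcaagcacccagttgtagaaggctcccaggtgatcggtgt
Fcer2a, first listed start: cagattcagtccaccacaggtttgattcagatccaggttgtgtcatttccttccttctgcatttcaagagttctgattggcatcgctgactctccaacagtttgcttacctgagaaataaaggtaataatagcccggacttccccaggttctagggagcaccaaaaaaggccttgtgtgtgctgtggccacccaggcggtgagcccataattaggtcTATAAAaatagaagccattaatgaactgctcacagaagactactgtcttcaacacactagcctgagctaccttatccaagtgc
Fcer2a, second listed start: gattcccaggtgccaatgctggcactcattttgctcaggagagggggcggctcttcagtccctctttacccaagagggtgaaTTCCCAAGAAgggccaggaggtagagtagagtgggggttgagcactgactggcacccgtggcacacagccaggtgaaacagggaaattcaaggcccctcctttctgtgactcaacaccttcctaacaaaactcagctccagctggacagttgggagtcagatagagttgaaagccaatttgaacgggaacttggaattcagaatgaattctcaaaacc

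The marked matches were not particular to the genes shown. Among the other members, Fcrl1 and Fcrla held a TATA match, Fcgr2b an NF-kB match and Fcamr a STAT6 match. Fcer2a had a TATA box beginning 33 bases before its first listed start, where 13.6% of 32851 windows held that motif anywhere. Its second start had a STAT6 match 168 bases upstream, a motif found in 6.95% of windows, which overlaps the 4-base core GGAA of ETS factors on the other strand. STAT6 is the factor through which interleukin-4 induces CD23. Fcmr had an NF-kB match 211 bases upstream (20.7% of windows), and Fcrl5 a TATA match on the reverse strand 171 bases upstream. Octamers (1.74% of windows) were found in 0 of the 9 windows of the 7 genes. The ETS core occurred in 96.0% and the E-box CANNTG in 72.3% of windows and they were not marked. A match is a string of letters and was not tested as a site.

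Fcgr2b, Fcrla and Fcrl1 parted by array set and, over all arrays, overlapped by genotype. Fcgr2b read between 7.97 and 8.49 on the narrower set and between 8.92 and 9.50 on the wider set, a mean difference of 0.93 log2 units or 1.90-fold. Fcrla read 7.64 to 7.80 and 8.09 to 8.59 (0.65 log2 units, 1.57-fold), and Fcrl1 8.83 to 9.01 and 9.34 to 9.53 (0.50, 1.41-fold). In these 3 of 7 genes the wider arrays all lay above the narrower ones, as in 26.9% of all tested genes, and in 0 of 7 they all lay below, as in 13.6%. The sets were defined from the spread of all intensities, so these values describe the arrays. They depend on the scale: after a further quantile normalization, chosen after seeing the data, the difference was 0.45 for Fcgr2b, 0.13 for Fcrla and 0.06 for Fcrl1. On that scale Fcgr2b still parted the sets, at 8.33 to 8.65 and 8.82 to 9.32, while Fcrla and Fcrl1 overlapped. Fcmr differed by -0.08 as deposited and by -0.47 on that scale, where its wider arrays all lay below the narrower ones.

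Markers of other B cell states moved with the same sets. Of the 8 tested germinal centre markers 7 were higher on all wider arrays, among them Fas, the CD95 of the sort, and Gcsam. Between genotypes Fas differed by 0.17 ± 0.50, Gcsam by 0.02 ± 0.50, Mybl1 by -0.06 ± 0.20 and Basp1 by 0.06 ± 0.08 (log2, ± SE). Over the list 5 means were higher and 3 lower in deficient cells, and 1 higher and 7 lower with the array set as a block. Of the 5 tested markers of naive follicular B cells 4 were lower there, and the list averaged 7.61 to 8.12 on the narrower and 6.31 to 6.89 on the wider arrays. Of these S1pr1 differed between genotypes by -0.02 ± 0.44, Klf2 by -0.01 ± 0.52, Cd55 by 0.31 ± 0.30 and Gpr183 by 0.19 ± 0.33. Their balance was 2 higher and 3 lower, and 5 higher and 0 lower with the block. Rgs13, a germinal centre regulator of chemokine signalling, read 5.86 to 6.44 on narrower and 8.59 to 9.59 on the wider arrays, and the homing receptor gene Ccr7 8.07 to 9.10 and 5.81 to 6.67, both named after their values were seen. Fcer2a, itself a follicular marker, did not part by set. It read 10.37 to 10.64 on the narrower and 9.83 to 10.88 on the wider arrays, 0.12 log2 units lower in the mean. On the scale of the further quantile normalization that difference was -0.43, with ranges of 10.43 to 10.78 and 9.47 to 10.89 that still overlapped. After the further quantile normalization 4 of the 8 germinal centre markers were higher and 1 lower on all wider arrays, and 5 of the 5 naive markers were lower. The part of these cell states and of the scale in the levels of Fcgr2b, Fcrla and Fcrl1 was not tested.

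**Figure D3:**
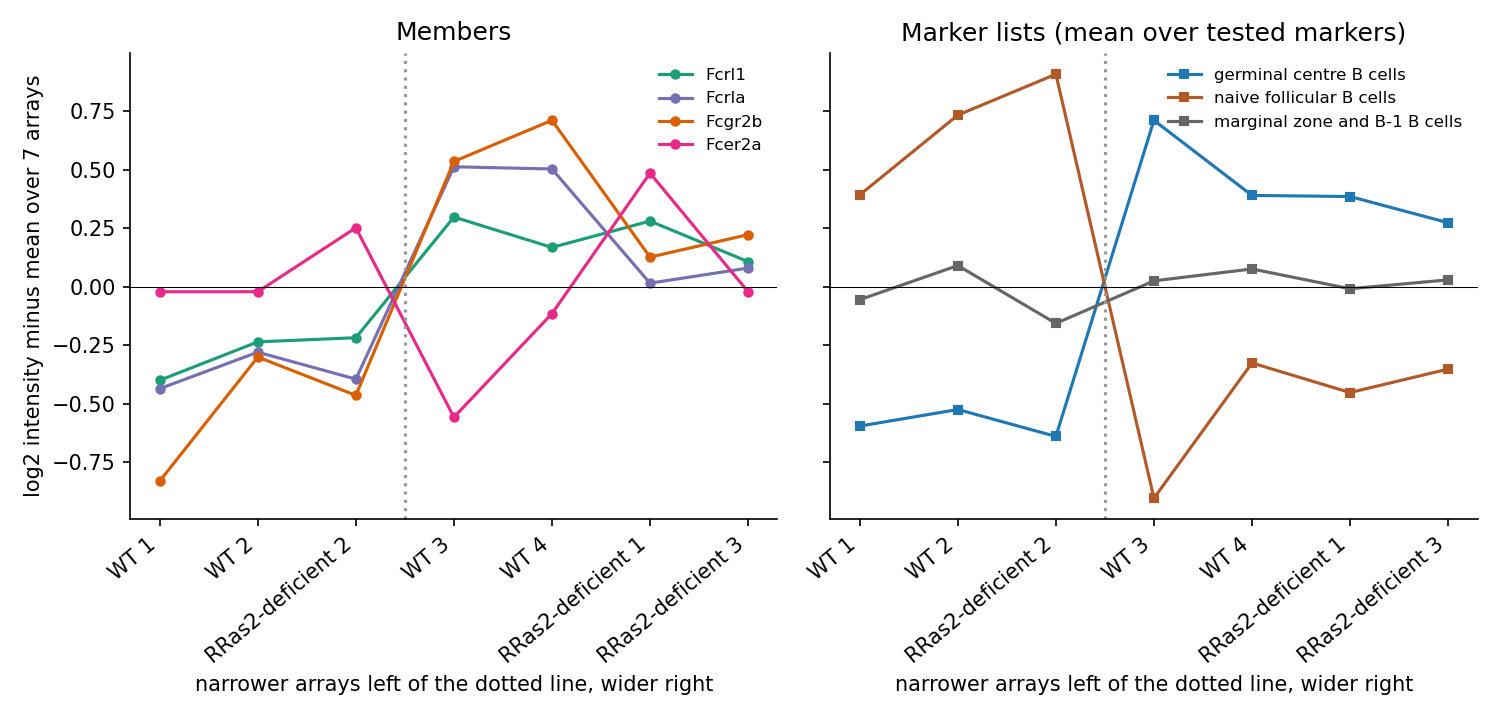
Left, log2 intensity of Fcrl1, Fcrla, Fcgr2b and Fcer2a on each array minus the gene's mean; right, the same for the mean of 3 marker lists; lines only join the points of a gene or list. On the deposited scale Fcrl1, Fcrla and Fcgr2b lie below 0 on the 3 narrower arrays and above 0 on the 4 wider ones, as do the germinal centre markers, while naive follicular markers run the other way.

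Fcrl5 is high on marginal zone and B-1 B cells, so the markers of those cells stand beside it. Of 11 tested, 10 had lower means and 1 a higher mean in deficient cells, with a median log2 difference of -0.08, where that of all tested genes was 0.005. In 0 of 11 did the genotypes part, 0 passed the limma test, and 0 had an unadjusted p under 0.05. The brightest, the complement receptor gene Cr2 and the Notch target Dtx1, differed by -0.09 ± 0.19 and -0.08 ± 0.10 (log2, ± SE). Those of lowest p, Cd1d1 and Cd9, differed by -0.12 ± 0.08 and -0.15 ± 0.13, with Cd1d1 near the limit for dim genes. The list averaged 6.02 to 6.16 on the WT arrays and 5.92 to 6.10 on the deficient ones, ranges that overlapped. Plasma cell markers had lower means in 8 of 8 cases (median -0.22), with 0 below an unadjusted limma p of 0.05. When array set was a block 2 of the 8 were below it, where 10.1% of all genes were. The germinal centre and B cell identity lists, with 8 tested markers each, also had 2 below it in that fit. The part of the marginal zone and B-1 list or of the plasma cell list in the level of Fcrl5 was not tested.

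The tested genes nearest to Fcrl5 in their course over the 7 arrays were Ptprj, Prkca, Phospho2, Wdr11 and Shisa8. Nearness was the root mean square difference of log2 values after each gene was centred on its own mean, and it was 0.146 to 0.155 log2 units for these 5 against a median of 0.370 over all tested genes. Ptprj encodes CD148, a receptor tyrosine phosphatase that acts on the kinases of the B cell receptor, and averaged 7.94 in WT and 7.46 in deficient samples with overlapping genotypes. Prkca, which encodes protein kinase C alpha, averaged 6.68 and 6.23, and its genotypes did not overlap. All 5 had lower means in the deficient cells, which follows from their choice by likeness to Fcrl5. Among the members, the pair nearest to each other was Fcrla and Fcgr2b (0.184), followed by Fcrl5 and Fcmr (0.189) and Fcrl1 and Fcrla (0.194), and the pair farthest apart was Fcgr2b and Fcer2a (0.687). The 2 genes nearest to each other member were Scaf4 and Traf6 for Fcrl1, Rsu1 and Acss1 for Fcrla, Arhgap1 and Igbp1 for Fcgr2b, Gm19281 and Eya1 for Fcer2a, Zfp446 and Olfr1362 for Fcmr, and Tsc22d2 and Avpi1 for Fcamr, at 0.031 to 0.098 log2 units.

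**Figure D4:**
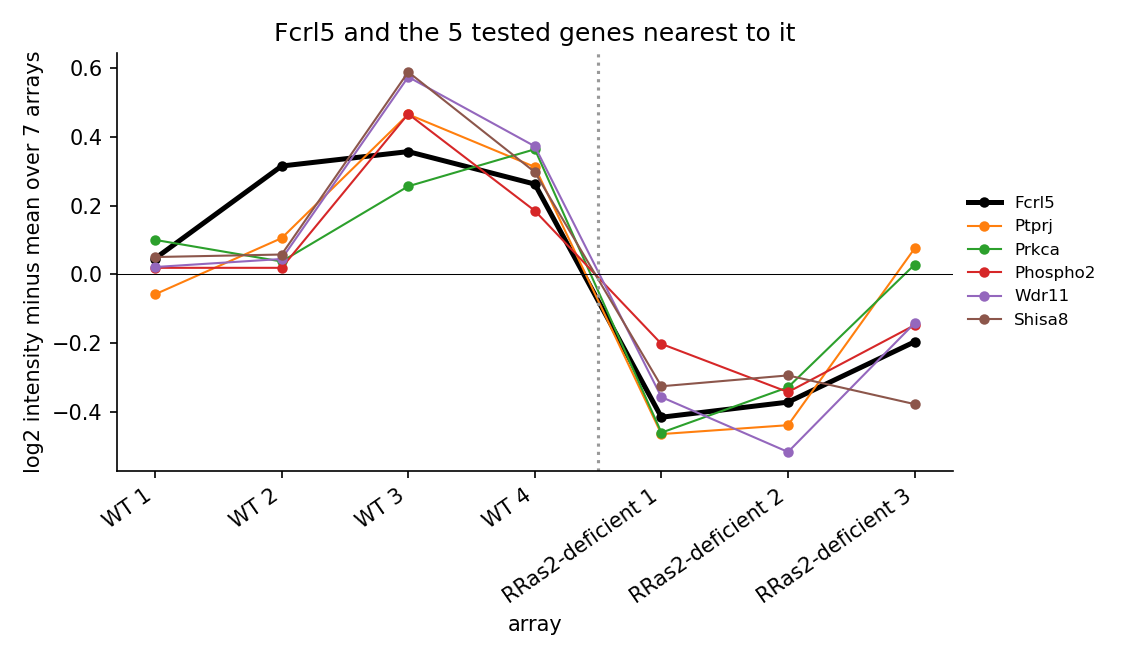
Log2 intensity minus the gene's mean on each array for Fcrl5 (black) and the 5 tested genes nearest to it, WT arrays left of the dotted line and RRas2-deficient arrays right; lines only join the points of a gene. Fcrl5 lies above 0 on the 4 WT arrays and below 0 on the 3 deficient ones, while Ptprj and Prkca lie near 0 on RRas2-deficient replicate 3.

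Several members lie side by side in the genome, and differences between neighbours were not tested. Fcrl1 and Fcrl5 are neighbours on chromosome 3, with differences of 0.10 and -0.57. Fcamr, Pigr and Fcmr follow each other on chromosome 1, with 0.14, -0.06 and -0.32, where Pigr carries polymeric immunoglobulin across epithelia. Fcrlb, Fcrla, Fcgr2b, Fcgr4 and Fcgr3 form another group on chromosome 1, where Fcrla and Fcgr2b differed by -0.17 and -0.07, and by -0.29 and -0.23 with the array set as a block. Fcer2a lies on chromosome 8. None of the 7 genes lies on chromosome 7, which holds Rras2.

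The other Fc receptors overlapped between genotypes with 1 exception. Of 12 measured, 9 were bright enough to be tested, and Fcgr4, Fcer1a and Ms4a2 were not. Means were higher in the deficient cells for 5 of the 9 and lower for 4, with a median of 0.03, and 0 passed the limma test (adjusted p = 1.00 for each), nor did any have an unadjusted p under 0.05. With the array set as a block, 7 were higher and 2 lower (median 0.05), and 3 of the 9, Fcrlb, Fcgr1 and Trim21, had an unadjusted limma p under 0.05, where 10.1% of all genes did, with none passing adjustment. Trim21, a cytosolic receptor for antibody on chromosome 7, was the only one of the 9 whose genotypes did not overlap. It read 6.75 ± 0.08 (SD, n = 4) in WT and 6.94 ± 0.04 (SD, n = 3) in deficient samples. Its deficient arrays all lay above the WT arrays, as in 0.719% of all tested genes. Fcrlb, the closest relative of Fcrla, differed by 0.45 ± 0.29 (SE), or 0.55 ± 0.17 with the block, and read 5.90 on RRas2-deficient replicate 2 against 4.42 to 4.95 on the other 6 arrays. Receptors typical of myeloid cells were dim or overlapping: Fcgr1 differed by 0.21 ± 0.10 and Fcgr3 by -0.06 ± 0.21, and their shared signalling chain Fcer1g by 0.11 ± 0.30. The neonatal receptor gene Fcgrt differed by -0.14 ± 0.20, Fcrl6 by -0.13 ± 0.08 and Fcrls by 0.03 ± 0.09.

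Myeloid cells also express Fcgr2b and the activating receptors, and their markers averaged 4.33 to 4.74 on the WT and 4.37 to 4.89 on the deficient arrays over 10 tested genes, 8 of them higher in the deficient mean. The highest array was RRas2-deficient replicate 3, and Fcgr2b read 9.02 there, inside its WT range. Markers of follicular dendritic cells, which also express Fcamr and Fcer2a, averaged 4.58 to 4.94 on WT and 4.72 to 5.06 on deficient arrays over 6 genes, 4 of them higher, with the highest value on RRas2-deficient replicate 2, where Fcamr also was highest at 4.06. That is a narrower array, and the list averaged 4.87 to 5.06 on the narrower and 4.58 to 4.81 on the wider arrays. The lowest Fcamr value, 3.50, was on a narrower array too. T cell markers averaged 3.76 to 4.63 on WT and 3.82 to 4.04 on deficient arrays. Of 5 markers each of natural killer cells and of mast cells and basophils, 2 of each were bright enough to be tested. The part of these cells in the results was not tested.

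Genes that carry the signal of these receptors overlapped between genotypes, except Inppl1. Its deficient arrays all lay above the WT arrays, as in 0.719% of all tested genes. Of the 13 signalling genes tested, the deficient mean was higher in 8 and lower in 5 (median 0.02). With the array set as a block it was higher in 4 and lower in 9 (median -0.08). In the fit without the block 0 passed the limma test (adjusted p = 1.00 for each). The inositol phosphatase gene Inppl1 (SHIP2), on chromosome 7, read 5.68 ± 0.05 (SD, n = 4) in WT and 6.24 ± 0.16 (SD, n = 3) in deficient samples, without overlap, and was already known for this difference. Its relative Inpp5d, the SHIP1 recruited by Fcgr2b and named for that role, differed by -0.12 ± 0.16 (SE). The kinase genes Syk and Csk differed by 0.14 ± 0.08 and 0.10 ± 0.12 and the adapter gene Dok1 by 0.09 ± 0.08. On the array sets 8 of the 13 were higher on all wider arrays, as were Fcgr2b and 26.9% of all tested genes.

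Genes that regulate CD23 or bind it overlapped between genotypes. Of 7 tested, the deficient mean was higher in 2 and lower in 5 (median -0.09), or higher in 1 and lower in 6 with the array set as a block, and 0 passed the limma test or had an unadjusted p under 0.05. Adam10, the protease that sheds CD23, differed by -0.07 ± 0.44, Cr2, its partner CD21, by -0.09 ± 0.19, and Notch2 by 0.22 ± 0.25 (log2, ± SE). The interleukin-4 pathway genes Il4ra and Stat6 differed by -0.11 ± 0.14 and -0.11 ± 0.11, Cd40 by -0.16 ± 0.19 and Il21r by 0.03 ± 0.23.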

How the data were processed

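Total RNA was biotin-labelled and read on 1 array per sample. The values deposited by the authors are log2 intensities, 1 per transcript cluster of the array. RMA and the package oligo are named, with no version, in the submitters' processing notes. Each array held 25349 values. No read depth applies, and precision is limited by how many arrays there are.

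Probes were named from the platform annotation, with 22225 carrying 1 symbol, 616 several and 2508 none. The brightest probe of a gene was kept, and genes were left out when their mean fell below the 25th percentile of all means (3.48). limma 3.58.1 in R 4.3.3 (lmFit, eBayes, two-sided) was fitted over 16136 genes with Benjamini-Hochberg adjustment at 0.05. All p-values are limma's, SE is its moderated standard error, and a difference is RRas2-deficient minus WT. The fit was tested on simulated data.

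A block for array set was fitted as an alternative. The members, lists and alternatives were chosen with earlier results of these data known. By rule the text names the 7 genes, Rras2, tested genes of the other Fc receptor and CD23 lists, the 4 signalling genes of lowest p, the brightest and lowest-p markers of the B cell lists, and the nearest genes. The rule covers all marker lists, but genes of the other marker lists are not named and are given by counts and levels. Other genes were named after their values were seen. Lyn and erythroid markers were not analysed here.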

Additional observations from a re-analysis of the deposited data

Results flagged for a closer look

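Among 65 genes named or listed in these comparisons, 4 had 1 WT array far from the other 3, and chance flags about 1 in 20 such groups. Fcer1g, the shared chain of activating Fc receptors, read 4.76 on WT replicate 3 against 5.58 to 5.70 on the other WT arrays. Cd40 read 7.29 on WT replicate 3, while the other 3 WT arrays shared 1 value, 7.17. Gm19281, a neighbour of Fcer2a in its course over the arrays, read 4.25 on WT replicate 3 against 4.78 to 4.84. Tsc22d2, which was near Fcamr in the same sense, read 7.42 on WT replicate 2 against 6.98 to 7.05. None of the 7 Fc receptor genes passed the limit for such an array among its WT samples. Fcer2a fell just short of it, with 9.83 on WT replicate 3 against 10.28 to 10.37 on the other WT arrays.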

How the results depend on the processing

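Fcrl5, Fcrla and Fcmr kept a lower mean and Fcer2a a higher mean in deficient cells under all 19 alternatives. These are not 19 separate checks. With 1 probe per gene, changing the dim-gene filter, the use of probes or the variance prior could not alter a difference. Leaving out WT replicate 4 gave the same differences as the replicate block. For Fcrl5 and Fcmr, whose genotypes did not overlap, leaving out arrays could not change the sign. The differences ran from -0.64 to -0.53 for Fcrl5, -0.46 to -0.03 for Fcrla, -0.51 to -0.03 for Fcmr and 0.27 to 0.57 for Fcer2a. Fcgr2b ran from -0.46 to 0.16 and was positive in 6, Fcrl1 from -0.04 to 0.24 and was negative in 3, and Fcamr from -0.01 to 0.36 and was negative in 1 of 18. None of the 7 passed the adjusted threshold in any of them. The limma count of genes over the whole table was 2 (Gm1966 and Trim12a, named after their values were seen). It was 1 with arrays centred on their medians (Gm1966), 5 with array weights (adding Gm4759, Trim12c and Trim30b), and 0 with the replicate block, on the narrower arrays alone or on the wider arrays alone, where 176, 1351 and 1311 genes had an unadjusted p under 0.05. Leaving out 1 array gave 0 to 2 genes: none without WT replicate 1 or 4 or deficient replicate 2 or 3, and 1 without WT replicate 2 or deficient replicate 1. The cause was not tested. Samples were not treated as paired by replicate number, because deviations from the group means correlated at 0.78 and 0.66 for numbers 2 and 3 but at -0.59 for number 1. Samples 2 also share the narrower and samples 3 the wider array set, while samples 1 lie in different sets. With the replicate block, which sets WT replicate 4 aside for want of a partner, Fcrl5 differed by -0.57 and Fcmr by -0.29. The narrower set holds 1 deficient array, and Fcamr lies too near the limit for dim genes for its size to be read.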
